A study of Mus musculus with 11 samples.

Results

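The genes described here encode the nuclear subunits of the mitochondrial respiratory chain and of ATP synthase. They were taken by symbol: every row of the deposited liver table whose symbol begins with Ndufa, Ndufb, Ndufc, Ndufs, Ndufv, Uqcr, Cox4i, Cox5, Cox6, Cox7, Cox8 or Atp5, together with Sdha, Sdhb, Sdhc, Sdhd and Cyc1. The 7 rows beginning with Ndufaf, which encode assembly factors, were left out. This gave 79 of 13636 rows: 38 of complex I, 4 of complex II, 9 of complex III, 11 of complex IV and 17 of complex V. The rule reads symbols and no values, and it was set with earlier results of these data known. Prefixes also bring in a few genes that are not subunits of the complex their symbol points to, and these are named where they are described.

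Liver RNA of male C57BL/6J mice was sequenced in 11 libraries. From the age of 8 weeks all mice ate a Western diet, and after 1 month of it they were injected for 6 weeks with PBS (4 libraries), with a scramble oligomer (3 libraries) or with a mimic of the microRNA miR-30c (4 libraries), the oligomers at rising doses of 2.5, 5 and 7.5 mg/kg. There was no untreated group and no group on another diet. The labels do not say that each library came from a separate mouse, so the p-values measure the spread between libraries, which may in part be technical.

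The respiratory chain passes electrons from NADH (complex I) and succinate (complex II) through ubiquinone, complex III and cytochrome c to oxygen at complex IV, and the proton gradient built on the way drives ATP synthase, complex V. Most subunits are encoded in the nucleus and imported, while a few hydrophobic ones of complexes I, III, IV and V are encoded in mitochondrial DNA. In hepatocytes this chain pays for gluconeogenesis and urea synthesis and takes up the electrons released by fatty acid oxidation.

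The microRNA given as a mimic is mmu-miR-30c-5p, encoded at chr1:23291714-23291736 on the plus strand and at chr4:120769584-120769606 on the minus strand (RefSeq, GRCm38.p6). Its mature sequence is shown because the search of the members for matches rests on it, with the seed, bases 2 to 8, in capitals.
mmu-miR-30c-5p: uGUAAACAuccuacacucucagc
A match to the seed in a messenger RNA reads TGTTTAC. Of 78 members with an annotated transcript, 1 held this match in its longest 3′ UTR, against 16.0% of 11483 rows. The members' 3′ UTRs were short, with a median of 199 bases against 1152 bases over all rows, and among rows with a 3′ UTR of at most 199 bases 1.71% held the match. The single member was Ndufv2, an iron-sulfur core subunit of complex I, with the match (in capitals) at position 493 of a 3′ UTR of 856 bases.
Ndufv2: ccctgcttgtaTGTTTACcaggctggcct
Ndufv2 did not pass the test. Its log2 change was -0.14 ± 0.1 against scramble (SE; adjusted p = 0.27) and -0.16 ± 0.09 against PBS (adjusted p = 0.18). In the coding sequence the match was found in 0 of 78 members, against 6.91% of rows. A match is a run of letters only and does not show binding.

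Values are scaled CPM, read counts after the authors' scaling of library size. A log2 change is a difference of group means of log2(value + 1), and a gene is called where the adjusted p is under 0.05. Taking the step of which all values of a library are whole multiples as 1 read, reads counted per library ranged from 39705157 to 60399018 in the mimic group and from 62848115 to 101380174 in the others. The rarest member, Ndufa4l2, rested on 18 to 106 reads per library and every other member on at least 172. The labelled tissue was borne out by its defining genes, with a sum over 11 hepatocyte markers (Alb, Apob and others) of 26500 to 33200 in the PBS libraries, 28200 to 31600 in the scramble libraries and 19900 to 25600 in the mimic libraries. Against scramble 0 of these 11 genes were called lower and 1 higher, and against PBS 2 were lower (Apob at -0.48, adjusted p = 0.029, and Tat at -0.41, adjusted p = 0.043) and 1 higher. Of 8 neutrophil markers listed, Camp, Mmp8 and Cxcr2 had no row, and the other 5 were called higher. Their sums were 1.17 to 2.66 in the PBS and scramble libraries and 16.2 to 35.6 in the mimic libraries. Called higher too were 6 of 10 stellate cell markers (1 lower), with sums of 65.7 to 104 and of 188 to 360. The name of the deposited table points to a filter on minimum CPM. In the controls S100a8, S100a9, Ltf and Ngp lay under 1 scaled CPM, as did Acta2 (stellate) and Gpnmb and Trem2 (macrophage). These may have rows only through the mimic libraries, which favours their calls as higher. Of 14 macrophage markers, 6 were called higher and 4 lower. Fewer hepatocytes and less RNA per hepatocyte cannot be told apart in such tissue RNA, and the part of these cells in the results below was not tested.

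On the authors' scaling the mimic libraries held less messenger RNA for the chain than either control. The summed level of the 79 members was 3680 ± 267 scaled CPM in PBS libraries (SD, n = 4), 3750 ± 131 in scramble libraries (SD, n = 3) and 3190 ± 100 in mimic libraries (SD, n = 4), and the highest mimic library, at 3280, lay below the lowest control library, at 3378. Complex II stood at 364 ± 17.1, 384 ± 9.76 and 295 ± 11.4 in the same order. Complex III stood at 482 ± 32.5, 492 ± 14.1 and 411 ± 16.3, and complex V at 1310 ± 94.7, 1330 ± 28.8 and 1110 ± 52.5. For these 3 complexes the mimic libraries did not overlap with any control library. Complex I had sums of 1000 ± 80.7, 1020 ± 52.3 and 907 ± 21.5, and complex IV of 522 ± 47.4, 525 ± 32.1 and 467 ± 17.2. Against PBS these last 2 overlapped, with a highest mimic library of 923.9 and a lowest PBS library of 910.2 for complex I, and of 487.4 and 468.1 for complex IV.

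**Figure D1:**
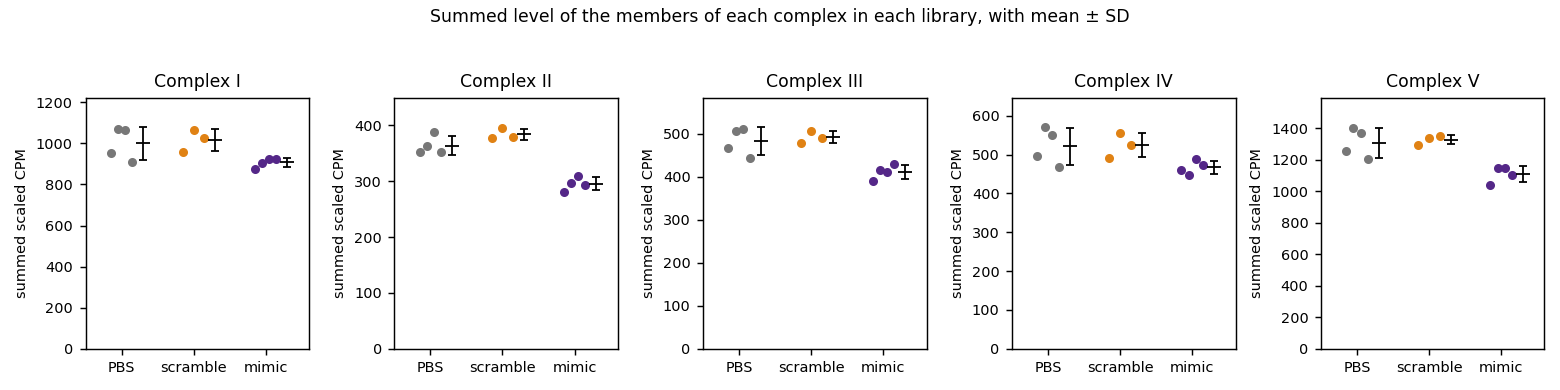
Summed scaled CPM of the members of complexes I to V in each library (points), by group, with the mean ± SD beside them. The 4 mimic libraries lie below all control libraries for complexes II, III and V, and reach into the PBS range for complexes I and IV.

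Of the 79 members, 20 were called lower and 1 higher in mimic against scramble, which is 25.3% and 1.27%. Over all 13636 rows 14.7% were called lower and 17.3% higher. The median change of the members was -0.15, against 0 over all rows, and 62 of 79 lay below 0. The shares over rows differed with mean level, and the part of level in this gap was not tested. Among the 8238 rows with a mean of at least 5, 21.3% were called lower and 12.9% higher. Of the 77 members among them 26% were lower and 0 higher, so the share lower was near that of this class. The class was not matched to the members in level. The median in that class was -0.07 over rows and -0.16 over members. The groups did not overlap, with mimic lower, for 30 members (38%), against 19.2% of rows, and with mimic higher for 5 (6.33%), against 21.6% of rows.

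Against PBS, 21 members (26.6%) were called lower and 4 (5.06%) higher, where 17.1% and 20% of all rows were, and among rows with a mean of at least 5 the shares were 28.6% and 3.9% of members against 23.8% and 15.9% of rows. The median change was -0.13. The groups did not overlap for 21 members with mimic lower and 4 with mimic higher, against 14.5% and 17.2% of rows. This comparison uses the same mimic libraries as the one above, so the 2 are not independent. Scramble against PBS gave 0 calls in limma among the members and 0 over all rows (0% in each direction), and the groups separated for 0 members, against 2.39% of rows lower and 2.33% higher. At an unadjusted p under 0.05 there were 0 members and 434 rows, and the members' median change was 0.02.

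The direction rests on the scaling of the libraries. Major urinary protein (Mup) genes took 37.9% to 52.9% of the reads in the control libraries and 12.5%, 34.8%, 41.3% and 11.6% in mimic replicates 1 to 4. Divided by library totals instead of the authors' scaled sizes, the median over all rows rose by 0.49 against scramble and by 0.50 against PBS. Then 0 members were lower and 14 and 24 were higher, beside 110 and 120 of 13636 rows lower and 5498 and 6882 higher. The members' share higher was below that of all rows in both comparisons. The members' median was then 0.41 and 0.44, which is -0.08 and -0.06 relative to all rows. As a plain share of reads the members took 0.258% to 0.393% in control libraries and 0.318% to 0.533% in mimic libraries. All changes given here are therefore relative to the bulk of genes, and ratios between members, which no scaling touches, are given beside the changes of the isoforms.

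The fit without mimic replicates 1 and 4 gave 6 members lower and 0 higher in both comparisons, with medians of -0.15 and -0.14. Of all 13636 rows this fit called 971 lower and 1577 higher against scramble, and 1142 lower and 1752 higher against PBS. The members' share lower was thus near that of all rows. Against scramble 7 members were called lower without scramble replicate 3 and 11 without scramble replicate 2, and against PBS 13 without PBS replicate 3. In the same order 1303, 1541 and 1631 of all rows were called lower, and 1720, 1921 and 2127 higher. Of the 21 members called against scramble, 7 were called in every fit that left out 1 library: Sdha, Uqcrc2, Ndufs1, Ndufb9, Cyc1, Ndufa10 and Ndufa4l2. Ndufa4l2 was called higher, and the filter on minimum CPM may have kept its row only through the mimic libraries. Its call is therefore no independent support. The PBS libraries also differed among themselves. The median deviation of the members from their mean over all libraries was 0.139 (log2) in PBS replicate 2, 0.123 in PBS replicate 3, -0.018 in PBS replicate 1 and -0.097 in PBS replicate 4. In the mimic libraries it ran from -0.143 to -0.052, so that PBS replicate 4 lay within their range.

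**Figure D2:**
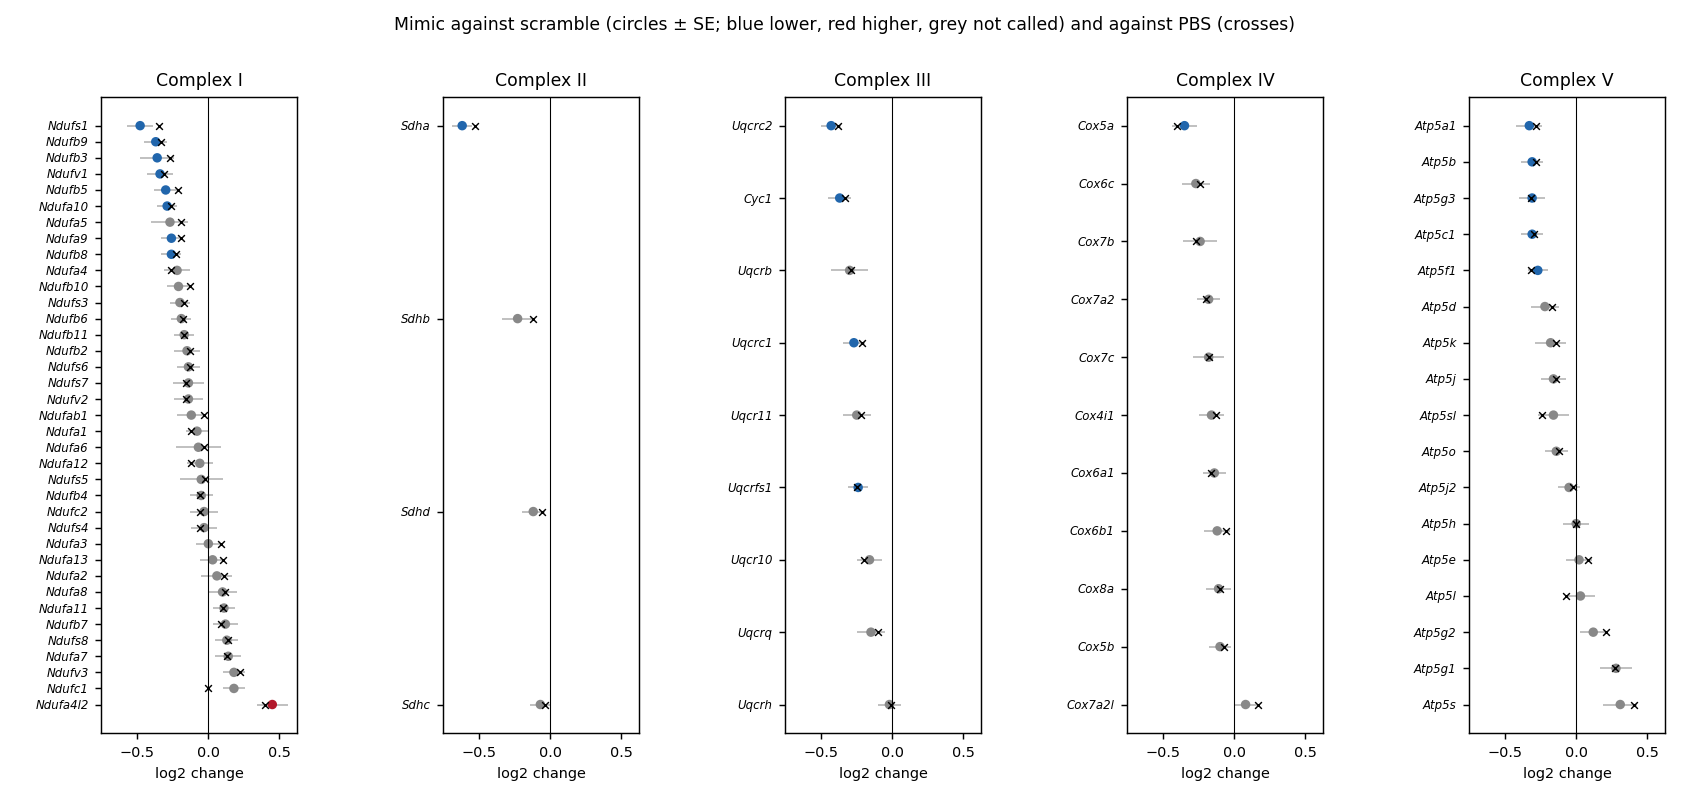
Log2 change of 78 of the 79 members by complex, mimic against scramble (circles with SE; blue called lower, red called higher, grey not called) and mimic against PBS (crosses). Sdha lies lowest at -0.62 and Ndufa4l2 highest at 0.45, and all 4 members of complex II and all 9 of complex III lie below 0 on the authors' scaling.

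Complex II had the member with the biggest fall. Sdha encodes the flavoprotein of succinate dehydrogenase, which oxidises succinate and so serves the tricarboxylic acid (TCA) cycle and the chain at once; the gene lies at chr13:74322254-74350280 on the minus strand (GRCm38). Its level was 189, 182, 210 and 197 scaled CPM in the PBS libraries, 202, 216 and 203 in the scramble libraries and 132, 134, 138 and 134 in the mimic libraries. The mimic libraries were tightly grouped and far below every control. The log2 change was -0.62 ± 0.07 against scramble (SE; adjusted p = 0.00018), with a mean that fell by 35%, and -0.53 ± 0.07 against PBS (adjusted p = 0.00025).

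The other 3 subunits of complex II did not pass the test. Sdhb, the iron-sulfur subunit, stood at 54.5, 61.5, 61.6 and 49.9 in PBS, 59.1, 62.6 and 61.9 in scramble and 44.6, 58.1, 59 and 48.3 in mimic libraries, with mimic replicates 1 and 4 low and 2 and 3 within the PBS range. Its log2 change against scramble was -0.23 ± 0.11 (adjusted p = 0.14). The membrane anchors Sdhc and Sdhd were at -0.07 ± 0.07 (adjusted p = 0.48) and -0.12 ± 0.08 (adjusted p = 0.27). The ratio of Sdha to Sdhb was 3.45 ± 0.405 in PBS, 3.39 ± 0.097 in scramble and 2.6 ± 0.329 in mimic libraries (SD); mimic replicate 1, at 2.97, reached PBS replicate 2, at 2.96, and no mimic library reached a scramble library. This pair was picked for its values and is given as a description, with no test.

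Complex III showed calls in its large subunits, beside 14.7% of all rows called lower against scramble and 17.1% against PBS. Among rows with a mean of at least 5 these shares were 21.3% and 23.8%. All 4 redox and core proteins of complex III were called lower in both comparisons, and 0 of its 5 small subunits were. Changes against scramble were -0.30 to -0.02 in the small ones. The difference between the large and the small subunits was not tested. Uqcrc2, a core protein that helps to hold the dimer together, at chr7:120635176-120659524 on the plus strand, stood at 87.3, 88.3, 95.2 and 86.1 in PBS, 89.4, 92.1 and 95 in scramble and 65.8, 65.7, 72.1 and 69.5 in mimic libraries. The groups were clear of each other. Its log2 change was -0.43 ± 0.07 against scramble (adjusted p = 0.001) and -0.38 ± 0.06 against PBS (adjusted p = 0.0011).

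Cyc1, cytochrome c1, which hands electrons to cytochrome c, stood at 55.4, 58.1, 61.4 and 56.4 in PBS, 58.6, 58.8 and 61.5 in scramble and 40.5, 51.1, 43.8 and 48.6 in mimic libraries. The mimic libraries spread widely but stayed below all controls, with a change of -0.37 ± 0.08 against scramble (adjusted p = 0.0069). The Rieske iron-sulfur protein gene Uqcrfs1 fell by 0.24 on the log2 scale (adjusted p = 0.027) and Uqcrc1, the other core protein, by 0.27 (adjusted p = 0.023). The call of Uqcrfs1 held in 6 of the 11 fits that left out 1 library, and against PBS in 11 of 11. The call of Uqcrc1 held in 7 of 11, and against PBS in 2 of 11. Among the small subunits Uqcrq, part of the ubiquinone-binding region, overlapped between groups, at 62.6 to 81.2 in mimic and 73 to 82.5 in scramble libraries, with a change of -0.15 ± 0.1 (adjusted p = 0.29).

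In complex I, 9 of 38 members were called lower and 1 higher against scramble, with a median of -0.13, and 10 and 2 against PBS, with a median of -0.12. Over all rows 14.7% were lower and 17.3% higher against scramble, and 17.1% and 20% against PBS. Among rows with a mean of at least 5, 21.3% were lower against scramble and 23.8% against PBS, so the shares lower in complex I were near this background. Core subunits carry the flavin and the iron-sulfur clusters. Ndufs1, a large one of them, at chr1:63143596-63176833 on the minus strand, stood at 45.4, 54.3, 55.9 and 46.2 in PBS, 55.1, 53.2 and 57 in scramble and 37.9, 37.9, 42.5 and 38.8 in mimic libraries. The mimic libraries lay below all controls, while PBS replicates 1 and 4 lay between. Its change was -0.48 ± 0.09 against scramble (adjusted p = 0.0022) and -0.35 ± 0.08 against PBS (adjusted p = 0.0067).

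Ndufv1, which binds NADH and the flavin, fell by 0.34 against scramble (SE 0.09; adjusted p = 0.016), with mimic replicate 2 at 41.5 and PBS replicate 4 at 41.4, so that mimic and PBS overlapped. The core subunits Ndufv2, Ndufs3, Ndufs7 and Ndufs8, lay between -0.20 and 0.13 and were not called.

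Accessory subunits surround and stabilise the core, and those called lower against scramble were Ndufb9, Ndufb3, Ndufb5, Ndufa10, Ndufa9 and Ndufb8. Ndufb9 stood at 52.5, 57.1, 55.4 and 47.7 in PBS, 52.2, 58.2 and 53.3 in scramble and 39.9, 41.3, 45.6 and 41.4 in mimic libraries. The groups did not overlap, and the change was -0.37 ± 0.08 (adjusted p = 0.006). Ndufb3, with a wider error of 0.12 on a change of -0.36 (adjusted p = 0.046), was not called against PBS (-0.27, adjusted p = 0.088). At the other end, 9 accessory or core subunits such as Ndufc1, Ndufa7 and Ndufs8 lay at 0.03 to 0.18, none of them called against scramble. Ndufv3, an accessory subunit beside the flavin site, stood at 20.7, 22, 22.3 and 18.9 in PBS, 20.3, 23 and 21.8 in scramble and 25.8, 23.2, 23.4 and 26.2 in mimic libraries. Every mimic library was above every control, by a narrow margin, and it was called higher against PBS (0.22 ± 0.07, adjusted p = 0.033) but not against scramble (0.18 ± 0.08, adjusted p = 0.11).

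**Figure D3:**
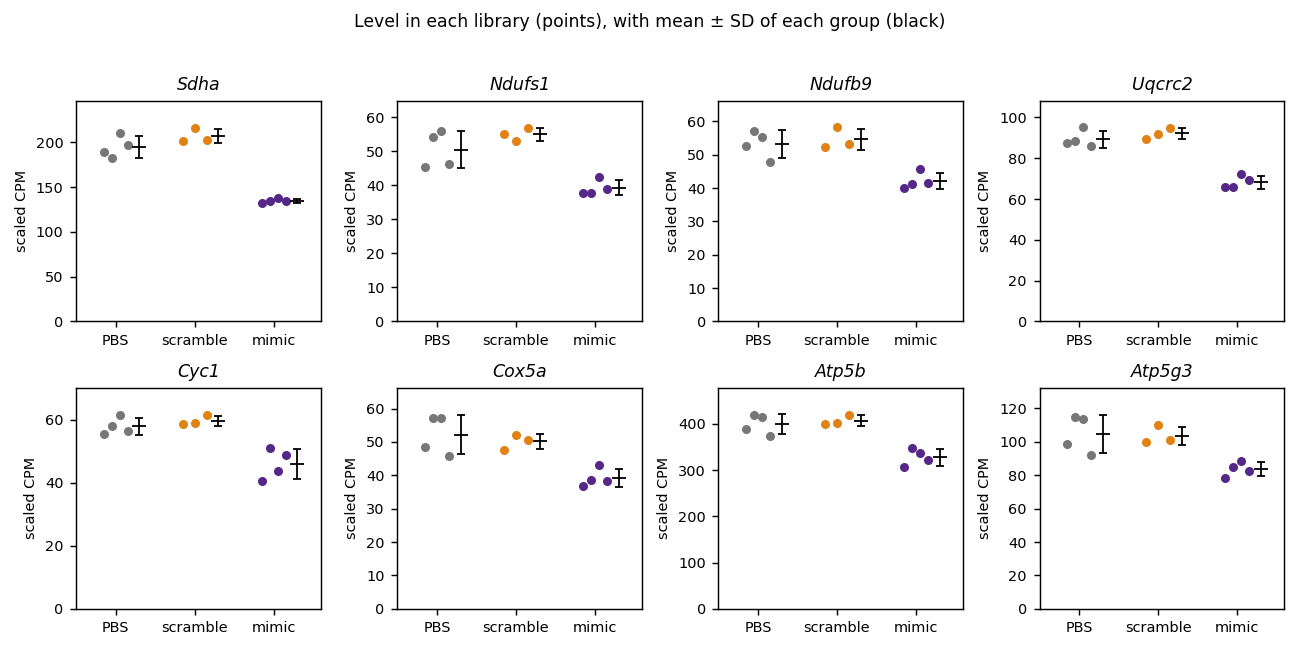
Scaled CPM of 8 members in each library (points), by group, with the mean ± SD in black; the axes start at 0. The mimic libraries lie below all controls in each panel, by the widest margin for Sdha (132 to 138 against 182 to 216).

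Ndufa4 and its paralog Ndufa4l2 went opposite ways against PBS. Ndufa4, named as a complex I subunit and since placed in complex IV, stood at 87.1, 93.7, 98.2 and 82 in PBS, 83.3, 91.8 and 88.9 in scramble and 72, 69.2, 81.8 and 78.2 in mimic libraries. The highest mimic library lay just under the lowest control. Its change was -0.22 ± 0.09 against scramble (adjusted p = 0.067) and -0.26 ± 0.08 against PBS (adjusted p = 0.026). Ndufa4l2, which is induced by hypoxia-inducible factor, was a rare transcript, at 0.588, 0.484, 0.445 and 0.387 in PBS, 0.356, 0.66 and 0.281 in scramble and 0.896, 0.908, 0.77 and 1.21 in mimic libraries, which is 18 to 50 reads in the controls and 45 to 106 in the mimic libraries. All mimic libraries were above all controls. Its log2 change was 0.45 ± 0.11 against scramble (adjusted p = 0.01), understated by the added 1: the ratio of means was 2.19. In every control library the level was under 1, so the row may have passed the filter on minimum CPM only through the mimic libraries. That favours a call as higher, so the call is no independent support.

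Per kilobase of transcript Ndufa4l2 stood at 0.463 and Ndufa4 at 144 scaled CPM in scramble libraries. The ratio of Ndufa4l2 to Ndufa4 was 0.00529 ± 0.00101 in PBS, 0.00487 ± 0.00208 in scramble and 0.0126 ± 0.00249 in mimic libraries, with no overlap. A two-sided exact permutation test over libraries gave p = 0.0286 against each control, the smallest that these group sizes allow, and 0.0514 after adjustment over the 9 tests of 3 isoform ratios, which is short of the threshold. The test was added after the values were seen. The filter may also have kept Ndufa4l2 only through the mimic libraries, so the p is no independent support. Ndufa4l2, at chr10:127514967-127517154 on the plus strand, overlaps exons of Shmt2 on the other strand. Shmt2 stood at 69.2 ± 2.83, 76 ± 8.65 and 75.3 ± 5.81 in the 3 groups and was not called (adjusted p = 0.94 against scramble). The library kit keeps strand, but whether the counting used it is not given in the sources used here, so reads of the pair may be mixed. The same holds for Ndufs1 with Eef1b2, Uqcrc2 with Pdzd9, Cox4i1 with Emc8, Atp5a1 with Haus1 and Atp5f1 with Wdr77, and in all for 21 of 78 members. Of these partners Eef1b2 lay on the other side of 0 from Ndufs1, at 0.31 against scramble (adjusted p = 0.06) and 0.31 against PBS (adjusted p = 0.037). Emc8 lay on the same side as Cox4i1, at -0.22 against scramble (adjusted p = 0.067) and -0.28 against PBS (adjusted p = 0.016), and Wdr77 on the same side as Atp5f1, at -0.24 (adjusted p = 0.054) and -0.11 (adjusted p = 0.28). Pdzd9 and Haus1 were not called. A read-through gene model on the same strand overlaps 3 members, Ndufb2, Ndufb8 and Ndufb9.

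Complex IV, cytochrome c oxidase, had 1 call among 11 members, a lower one, where 14.7% of all rows were lower against scramble and 17.1% against PBS. Cox5a, a subunit on the matrix side, stood at 48.6, 57.1, 57.2 and 45.9 in PBS, 47.6, 52.1 and 50.7 in scramble and 36.7, 38.5, 43.2 and 38.3 in mimic libraries. The mimic libraries lay below all controls, with a change of -0.35 ± 0.09 against scramble (adjusted p = 0.015) and -0.40 ± 0.09 against PBS (adjusted p = 0.0046). The other 9 nuclear subunits lay between -0.27 and -0.10 against scramble, all below 0 on the authors' scaling and none called; Cox4i1, the largest nuclear subunit, was at -0.16 ± 0.09 (adjusted p = 0.19). The remaining member, Cox7a2l, a factor that joins complexes III and IV into supercomplexes, was at 0.08 ± 0.08 against scramble and 0.17 ± 0.07 against PBS (adjusted p = 0.44 and 0.085).

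Several complex IV subunits have a form found in liver and a form found mainly in other tissues. The forms of liver were in the table: Cox6a1 at 54.2 to 63.4 in scramble and 49.2 to 56.1 in mimic libraries, Cox7a2 at 36.6 to 38.5 and 32.5 to 34.6, Cox8a at 49.3 to 56 and 45.5 to 52.8, with Cox4i1 and Cox6b1. Cox6a1 and Cox8a overlapped between the groups and Cox7a2 did not. The partner forms Cox4i2, Cox6a2, Cox6b2, Cox7a1 and Cox8b had no row among those analysed here, so a switch of form could be read only for the Ndufa4 pair and for the c subunits of ATP synthase.

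ATP synthase, complex V, had 5 of 17 members lower and 0 higher against scramble, and 5 lower and 2 higher against PBS. Over all rows 14.7% were lower and 17.3% higher against scramble, and 17.1% and 20% against PBS. Among rows with a mean of at least 5 these shares were 21.3% and 12.9%, and 23.8% and 15.9%. The catalytic head (alpha and beta) and central stalk (gamma, delta and epsilon) of the enzyme have 5 genes here, of which 3 were lower. Atp5b, the catalytic beta subunit, stood at 388, 419, 416 and 374 in PBS, 399, 402 and 420 in scramble and 306, 348, 337 and 322 in mimic libraries, the highest level per kilobase of all matched members (212 in scramble). No mimic library reached a control, and the change was -0.31 ± 0.08 (adjusted p = 0.017). Atp5a1 (alpha) stood at 310, 353, 343 and 296 in PBS, 334, 336 and 339 in scramble and 245, 284, 282 and 257 in mimic libraries, again with no overlap and with a change of -0.33 ± 0.09 (adjusted p = 0.018). Atp5c1 (gamma), at 86.5 to 93.1 in scramble and 64.2 to 77.8 in mimic libraries, changed by -0.31 ± 0.08 (adjusted p = 0.012). Atp5d (delta) and Atp5e (epsilon), the small subunits of the central stalk, were not called, at -0.22 ± 0.1 and 0.02 ± 0.09. Of 7 genes of the peripheral stalk and membrane part, Atp5f1, the stalk's b subunit, was called, at -0.27 ± 0.07 (adjusted p = 0.018).

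The c ring, the rotor that protons turn, is built from 1 mature protein that 3 genes encode with different import sequences. Per kilobase of transcript Atp5g3 stood at 144 and Atp5g2 at 14 scaled CPM in scramble libraries; the value of Atp5g1, 2.76, rests on an annotated 3′ UTR of 4252 bases. Atp5g3 stood at 98.6, 115, 114 and 92.1 in PBS, 100, 110 and 101 in scramble and 78.5, 85.2, 88.8 and 82.7 in mimic libraries. All mimic libraries were lower, with a change of -0.31 ± 0.09 against scramble (adjusted p = 0.025) and -0.32 ± 0.08 against PBS (adjusted p = 0.014). Atp5g1 stood at 12.7, 14.7, 13 and 11.9 in PBS, 12, 13.2 and 13.9 in scramble and 16.5, 15.4, 13.5 and 18.9 in mimic libraries. Mimic replicate 3 lay within the control range and the other 3 above it. Its change was 0.28 ± 0.11 against scramble (adjusted p = 0.067) and 0.27 ± 0.1 against PBS (adjusted p = 0.048), and the second call held in 2 of the 11 fits that left out 1 library. Atp5g2 stood at 9.18, 10.9, 9.87 and 8.09 in PBS, 9.85, 10.5 and 10.2 in scramble and 10.9, 11.1, 11.2 and 11.3 in mimic libraries, and was not called (0.12 ± 0.09, adjusted p = 0.29; 0.21 ± 0.08 against PBS, adjusted p = 0.051).

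The balance of the 3 c genes was read from ratios within each library, which no scaling touches. The ratio of Atp5g2 to Atp5g3 was 0.0906 ± 0.00415 in PBS, 0.0979 ± 0.00246 in scramble and 0.133 ± 0.00599 in mimic libraries, and that of Atp5g1 to Atp5g3 was 0.125 ± 0.00769, 0.125 ± 0.0101 and 0.193 ± 0.0336. In neither ratio did a mimic library reach a control. Two-sided exact permutation tests gave p = 0.0286 for Atp5g2 against each control, and p = 0.0571 against scramble and 0.0286 against PBS for Atp5g1, with adjusted values of 0.0514, 0.0735 and 0.0514. None passed the threshold of 0.05 after adjustment, and these tests too were added after the values were seen. A ratio shows unequal change and does not say which of the genes changed.

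**Figure D4:**
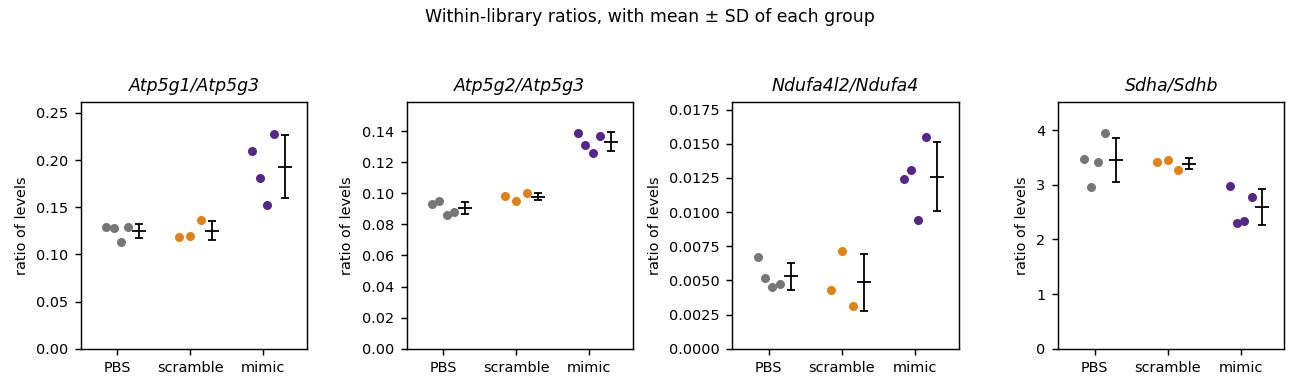
Ratios of levels within each library (points), by group, with the mean ± SD: 2 ratios of c-subunit genes, the Ndufa4 pair, and Sdha to Sdhb. The mimic libraries lie above all controls in the first 3 panels (for example 0.126 to 0.139 against 0.0863 to 0.1 for Atp5g2/Atp5g3) and reach the PBS range only for Sdha/Sdhb.

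Since the 3 c genes encode 1 protein under separate promoters, their promoter windows, 250 bases before to 50 after the start (RefSeq, GRCm38.p6, shown on the gene's strand), are given with the motif found in capitals: the palindromic NRF1 motif in Atp5g2 and the ERR-alpha motif TGACCTTGA in Atp5g3. Atp5g1 held none of the motifs searched.
Atp5g1, chr11:96075582-96075881 (-): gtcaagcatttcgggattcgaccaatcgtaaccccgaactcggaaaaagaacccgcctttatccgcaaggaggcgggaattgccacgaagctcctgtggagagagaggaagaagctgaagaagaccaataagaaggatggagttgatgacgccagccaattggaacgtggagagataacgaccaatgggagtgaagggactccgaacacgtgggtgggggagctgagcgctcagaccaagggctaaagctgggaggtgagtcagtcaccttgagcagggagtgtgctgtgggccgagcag
Atp5g2, chr15:102670998-102671297 (-): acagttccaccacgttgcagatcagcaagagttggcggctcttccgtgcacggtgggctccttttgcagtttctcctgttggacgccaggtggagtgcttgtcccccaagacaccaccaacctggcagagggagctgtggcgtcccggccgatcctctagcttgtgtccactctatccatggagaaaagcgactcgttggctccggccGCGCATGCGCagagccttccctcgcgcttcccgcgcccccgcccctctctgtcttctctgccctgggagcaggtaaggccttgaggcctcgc
Atp5g3, chr2:73911277-73911576 (-): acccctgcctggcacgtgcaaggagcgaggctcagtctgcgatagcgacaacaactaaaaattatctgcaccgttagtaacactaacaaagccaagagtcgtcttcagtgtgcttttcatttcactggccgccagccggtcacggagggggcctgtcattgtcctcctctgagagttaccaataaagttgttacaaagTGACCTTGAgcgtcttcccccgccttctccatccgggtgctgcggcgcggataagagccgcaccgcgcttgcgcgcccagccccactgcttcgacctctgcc
Windows were found for 63 members, 68 windows in all. Both strands were searched for 4 motifs of factors known to act on respiratory genes. The NRF1 motif was in 5 windows (7.35%, against 0.971% of all 32851 windows in the table), the ETS motif CCGGAAG, which GABP binds, in 16 (23.5% against 8.86%), the ERR-alpha motif in 2 (2.94% against 0.423%) and AAGATGG, part of the YY1 motif, in 10 (14.7% against 6.34%). These windows are not limited to the rows analysed here. Among rows with a window, 1842 held the ETS motif and 7638 did not, a share well above 8.86% and near that of the members. The NRF1 motif was held by 221 rows and not by 9259, and AAGATGG by 800 and not by 8680. The contrasts were not tested. No match overlapped another. Of the 16 members with the ETS motif 0 were called lower against scramble, and of the 47 without it 13 were. Over all rows with a window, 14.3% of 1842 with this motif and 14.7% of 7638 without it were called lower. The medians of the 2 sets of members were -0.12 and -0.14, and the difference was not tested. For the other motifs the counts were small: 1 of 5 members with the NRF1 motif and 12 of 58 without it were called lower, 2 of 10 and 11 of 53 for AAGATGG, and 1 of 2 and 12 of 61 for the ERR-alpha motif. No match says only that these letters are not in the window.

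The remaining members under the Atp5 prefix are 2 genes that are not subunits of the enzyme. Atp5s, coupling factor B, stood at 3.26, 4, 3.37 and 2.78 in PBS, 4.12, 2.9 and 4.03 in scramble and 5.1, 4.36, 4.91 and 4.67 in mimic libraries. All mimic libraries were higher, with a change of 0.41 ± 0.11 against PBS (adjusted p = 0.012) and 0.31 ± 0.12 against scramble (adjusted p = 0.061). Atp5sl was not called (-0.16 ± 0.11 against scramble).

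Calls were more frequent among the long members. Of those with at most 500 coding bases, Ndufb3, Atp5g3 and Cox5a were called lower against scramble. These calls held in 3, 6 and 10 of the 11 fits that left out 1 library. Of the 11 members with a coding sequence over 1000 bases, 10 were called lower in both comparisons, and the other, Ndufv3, was called higher against PBS. Of 20 members with over 500 and up to 1000 coding bases 7 were called lower, and of 47 with at most 500 bases 3 were lower and 1 higher. The shares called lower against scramble were thus 90.9%, 35% and 6.38%, where 23.6%, 16.1% and 9.33% of all rows with a mean of at least 5 in the same classes were. The medians of the members in these classes were -0.31, -0.21 and -0.11 against scramble. Over all rows with a mean of at least 5 the same length classes had medians of -0.10 (5123 rows), -0.02 (1685 rows) and 0.07 (568 rows), so that on the authors' scaling the median rose from the long to the short class over the table too, and the members' median lay below that of the rows in each class. Spearman's rho between coding length and change was -0.36 over 78 members, and -0.17 over 7376 rows with a mean of at least 5. The mean level went with the change more closely than length did (rho -0.59 over the members), and length and level were themselves related (rho 0.34). These are descriptions across genes that share the same libraries, and the part of length or level in the calls was not tested. RNA integrity numbers, given for 7 of the 11 libraries, were between 8.4 and 9.2.

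**Figure D5:**
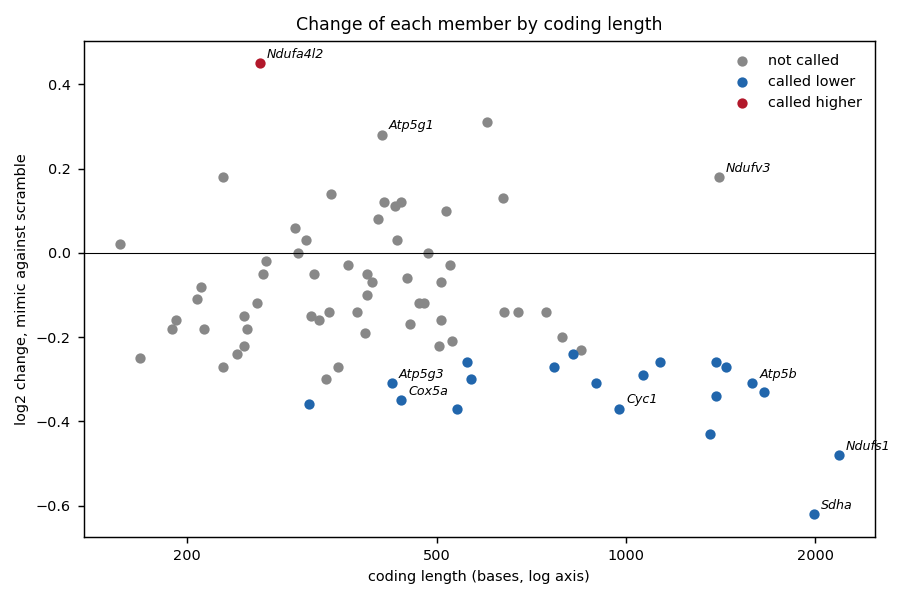
Log2 change of 78 members in mimic against scramble (vertical axis) by coding length in bases (log axis), coloured by call. Of the 11 members over 1000 bases 10 are called lower and Ndufv3 is not, while 43 of the 47 members of at most 500 bases are not called.

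Genes that work beside the subunits were read from lists written for the pathway. Of assembly factors, 2 of 14 for complex I (Ecsit and Ndufaf4), 0 of 4 for complex II, 2 of 6 for complex III (Uqcc1 and Ttc19) and 3 of 22 for complex IV (Lrpprc, Cox16 and Sco1) were called lower against scramble, and none of the genes in these 4 lists higher. Against PBS the counts lower were 2, 0, 2 and 5, and 2 complex I assembly factors were higher, Ndufaf7 (0.46, adjusted p = 0.0053) and Acad9 (0.30, adjusted p = 0.035). Lrpprc, which keeps mitochondrial messenger RNAs stable, stood at 60.6 to 72.2 in PBS, 63 to 68.6 in scramble and 36.4 to 52 in mimic libraries, a change of -0.55 ± 0.11 (adjusted p = 0.0042). Of the 4 genes listed for complex V, Tmem70, an assembly factor, was lower (-0.35 ± 0.08, adjusted p = 0.0055) and Atpif1, the inhibitor that stops ATP synthase from running backwards, was higher. Atpif1 stood at 3.21 to 4.9 in PBS, 4.03 to 4.45 in scramble and 7.66 to 9.17 in mimic libraries, with no overlap and a change of 0.82 ± 0.11 against scramble (adjusted p = 0.00028) and 0.91 ± 0.1 against PBS (adjusted p = 7.6e-05).

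Among electron carriers and ubiquinone synthesis, 6 of 16 genes were lower and 1 higher, with a median of -0.16. Etfa, a subunit of the flavoprotein that collects electrons from fatty acid oxidation, changed by -0.44 ± 0.08 (adjusted p = 0.0018), and Coq10b, a ubiquinone-binding protein, by -0.62 ± 0.11 (adjusted p = 0.0022). Of the TCA cycle and pyruvate dehydrogenase, the source of the chain's NADH, 7 of 17 genes were lower and 0 higher, with a median of -0.28. Pdha1, the catalytic alpha subunit of pyruvate dehydrogenase, stood at 72.6 to 79.5 in scramble and 36.4 to 44.7 in mimic libraries, a change of -0.84 ± 0.08 (adjusted p = 5.4e-05). Idh3b, a subunit of NAD-dependent isocitrate dehydrogenase, changed by -0.54 ± 0.07 (adjusted p = 3e-04).

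Of 15 regulators of mitochondrial biogenesis, 6 were lower and 0 higher against scramble, and 9 and 0 against PBS. Tfb2m, a mitochondrial transcription factor, stood at 11.8 to 13.6 in scramble and 6.88 to 8.19 in mimic libraries (-0.65 ± 0.08, adjusted p = 0.00018). Yy1 changed by -0.43 ± 0.08 (adjusted p = 0.0032) and Gabpb1 by -0.46 ± 0.11 (adjusted p = 0.0083), while Ppargc1a, the coactivator best known for driving respiratory genes, spread widely and was not called (-0.28 ± 0.27, adjusted p = 0.44). Of 7 carriers and pores 1 was lower and 2 higher. Ucp2, an uncoupling protein that macrophages also express, stood at 6.24 to 9.25 in scramble and 18.1 to 29.5 in mimic libraries (1.33 ± 0.25, adjusted p = 0.0029). Slc25a4, the heart and muscle form of the adenine nucleotide carrier, was low throughout and higher in mimic libraries (0.73 ± 0.11, adjusted p = 0.00063). Beside these counts stand 14.7% of all rows called lower and 17.3% higher against scramble, and 17.1% and 20% against PBS. Among rows with a mean of at least 5, the shares were 21.3% and 12.9% against scramble and 23.8% and 15.9% against PBS. Some of the listed genes lie below that mean. Of the 13 subunits encoded in mitochondrial DNA 0 were among the rows analysed here, so the balance between the 2 genomes was not read.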

How the data were processed

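The deposited table holds 1 value per gene and library, a signal described here as scaled CPM: the authors' values are whole multiples of 1 step in each library (tolerance 1e-06), as read counts divided by a scaled library size are; reads given are values divided by that step. The submitters' processing notes name mm10, edgeR 3.8.6 in R 3.1.2, bedtools 2.17.0 and SAMtools 0.1.19 beside Bowtie, FastQC 0.11.3 and bcl2fastq 1.8.4; settings and the annotation are not given in the sources used here. Groups came from sample titles. Symbols were trimmed of spaces (59 rows). The name of the deposited table points to a filter on minimum CPM before deposit. The test was limma 3.58.1 in R 4.3.3, applied to log2(value + 1): 1 model of 3 group means held all 11 libraries, variances were moderated with a trend on mean level, and p-values were adjusted (Benjamini-Hochberg) over 13636 rows, and the fit was tested on simulated data. Members and lists were chosen with earlier results of these data known, and subunit roles were assigned after the values were known. Genes given with values were, per complex, the 3 called members with the smallest p and the 2 highest, called members against the main direction and isoform pairs; from each other list up to 3 called genes with the smallest p; others were chosen after their values were seen, and 1 member is not reported here by name. The isoform ratio tests, the motif search, the length classes and the background among rows with a mean of at least 5 were added after values were seen. The YY1 motif was shortened after a search with a longer form, which fewer windows held. Transcripts and positions came from GENCODE on GRCm38, the assembly of mm10, with the longest coding sequence per symbol (78 of 79 members matched); promoters and the microRNA came from RefSeq. Alternatives covered the pseudocount, a filter, scaling, the block, libraries, the variance model and weights.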

Additional observations from a re-analysis of the deposited data

Results flagged for a closer look

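Cox8a, a small complex IV subunit, stood at 52.8 scaled CPM in mimic replicate 1 and at 45.5 to 46.4 in the other 3 mimic libraries, so that 1 library lay far from its group. Among the 62 sets of 4 libraries looked at this way, 1 stood out, and chance alone gives about 1 in 20.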

How the results depend on the processing

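Scaling decided the direction. With library totals the members' median changes were 0.41 (mimic against scramble) and 0.44 (mimic against PBS). In the same order 0 and 0 members were lower and 14 and 24 higher. Over all 13636 rows 110 and 120 were lower and 5498 and 6882 higher, and the median moved by 0.49 and 0.50. The changes below turned positive. Against scramble the values were Ndufs1 0.10, Ndufb9 0.21, Ndufa4 0.36, Sdhd 0.46, Uqcrc2 0.15, Cyc1 0.21, Uqcrc1 0.31, Uqcrq 0.43, Cox5a 0.23, Cox4i1 0.43, Cox6a1 0.44, Atp5c1 0.27, Atp5b 0.28, Atp5f1 0.31, Atp5a1 0.25, Cox7a2 0.39, Cox8a 0.47, Cox6b1 0.46, Atp5g3 0.28. Against PBS they were Ndufs1 0.25, Ndufb9 0.27, Ndufa4 0.35, Sdha 0.08, Sdhd 0.54, Uqcrc2 0.22, Cyc1 0.27, Uqcrc1 0.40, Uqcrq 0.51, Cox5a 0.20, Cox4i1 0.47, Cox6a1 0.44, Atp5c1 0.30, Atp5b 0.33, Atp5f1 0.28, Atp5a1 0.33, Cox7a2 0.39, Cox8a 0.50, Cox6b1 0.54, Atp5g3 0.29. Quantile normalization gave 5 and 10 members lower and 1 and 4 higher, beside 2249 and 2620 of 13636 rows lower and 1985 and 2320 higher. The members' share lower was then below that of all rows in both comparisons. Against PBS the changes of Sdhd and Cox6b1 were 0.03 and 0.02, and the cause was not tested. Rows with a mean of at least 5 gave 0 members higher against scramble, Ndufa4l2 being left out. Library weights gave 24 members lower and 4 higher against scramble, beside 2727 and 2971 of 13636 rows. The fit of only the 2 groups gave 17 members lower and 2 higher against PBS, beside 2049 and 2441 of 13636 rows. The replicate block gave 17 and 18 lower and 1 and 2 higher; numbers were not taken to pair libraries, since deviations of same-numbered libraries correlated between -0.28 and 0.26. Without mimic replicates 1 and 4, 6 members were lower and 0 higher in both comparisons. The same fit called 971 and 1142 of 13636 rows lower and 1577 and 1752 higher. Leaving out 1 library gave 7 to 22 members lower, 1 to 2 higher and medians of -0.19 to -0.12 against scramble. Against PBS it gave 13 to 24 lower, 2 to 6 higher and medians of -0.18 to -0.10. Over all rows these fits called 1165 to 2305 lower and 1659 to 2599 higher against scramble. Against PBS they called 1631 to 2687 rows lower and 2120 to 2994 higher. The pseudocount of 0.25, median-of-ratios scaling and the fit with no mean-variance trend left the counts of members lower within 1 of the values given and those higher within 1. Scramble against PBS had 0 members called under every alternative run. The edgeR and DESeq2 tests were not run, since the check that steps are reads needs more low values than 8 of the 11 libraries hold, although 100% of values were whole multiples in each. Among the members depth limits Ndufa4l2 most.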
